A study of Mus musculus with 6 samples.

Results

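The STAT genes are described here through the open chromatin called at them in mouse CD8+ T cells. The members are Stat2, Stat3, Stat4, Stat5a, Stat5b and Stat6, and a peak was counted for a member when that gene was the nearest protein-coding gene body to the peak summit, inside it or within 100 kb. By this rule 462 of the 573921 peaks in the 6 deposited lists belonged to these 6 of 21883 protein-coding genes. Of the 462 peaks, 430 had their summit inside the gene body, and the farthest summit lay 16.8 kb outside. The members were named for the family and not for their values.

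The assay was ATAC-seq, which reads open chromatin as the places where a transposase could cut and tag the DNA. The cells were CD8+ T cells of mouse spleen, isolated by removing other cells, stimulated with antibodies against CD3 (5 µg/mL) and CD28 (1 µg/mL) and cultured for 48 h below a porous membrane that carried lung adenocarcinoma cells resistant to PD-1 blockade. The tumour cells held a short hairpin RNA against Fabp7, a fatty acid binding protein (Res-shFabp7, 3 libraries), or were the control of that line (Res-ctrl, 3 libraries). The comparison asks whether open chromatin in T cells depends on which tumour cells shared the culture. The T cell libraries cannot check the knockdown, which was made in the tumour cells, and the sources used here do not give the age, sex or strain of the mice.

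STAT proteins are transcription factors that wait in the cytoplasm and are phosphorylated by JAK kinases bound to cytokine receptors. The phosphorylated proteins pair, enter the nucleus and bind either the interferon-stimulated response element (ISRE) or the gamma-activated site (GAS). In T cells STAT2 serves type I interferon, STAT3 serves IL-6, IL-10 and IL-21, STAT4 serves IL-12, STAT5A and STAT5B serve IL-2, IL-7 and IL-15, and STAT6 serves IL-4. Open chromatin at a STAT gene is a property of that gene's own DNA and is neither its transcript level nor the activity of its protein.

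The promoter windows of the members differed in whether they were open, in their base composition and in the motifs they held. The RefSeq windows used here (GRCm38.p6, the primary assembly of mm10) cover 9 starts of the 6 genes. Each runs from 250 bases before to 50 bases after the start, read along the gene. Outer and inner refer to the given windows only. No window was given at the 5′ end of the Stat5b gene body, chr11:100859004. Of the 9 windows, 7 overlapped a region called in all 6 libraries, against 36.7% of all 32851 windows. GC content ran from 46% at the inner start of Stat4 to 82.7% at the outer start of Stat5b, with a median of 57.7%. The median was 52.7% over all windows, 61.7% over those with a region in all 6 libraries and 48.7% over those without.

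Stat4 and Stat2 are shown because their windows hold the ISRE core (GAAA, any 2 bases and GAAA again, searched on both strands). The capitals mark it, and it lies 97 bases before the inner start of Stat4 and, on the opposite strand, 222 bases before the start of Stat2. The core was found in 3.44% of all windows and in 2.96% of the windows with a region in all 6 libraries. The outer start of Stat4 is shown beside them because no region covered it. The Stat2 window is chr10:128270248-128270547, and those of Stat4 are chr1:52007990-52008289 (inner) and chr1:51986898-51987197 (outer), all on the plus strand.
Stat2 start: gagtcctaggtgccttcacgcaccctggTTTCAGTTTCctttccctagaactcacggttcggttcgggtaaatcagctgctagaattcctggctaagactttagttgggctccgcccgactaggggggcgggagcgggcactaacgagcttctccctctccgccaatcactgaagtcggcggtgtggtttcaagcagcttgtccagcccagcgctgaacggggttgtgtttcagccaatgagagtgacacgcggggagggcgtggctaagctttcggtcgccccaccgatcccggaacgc
Stat4 inner start: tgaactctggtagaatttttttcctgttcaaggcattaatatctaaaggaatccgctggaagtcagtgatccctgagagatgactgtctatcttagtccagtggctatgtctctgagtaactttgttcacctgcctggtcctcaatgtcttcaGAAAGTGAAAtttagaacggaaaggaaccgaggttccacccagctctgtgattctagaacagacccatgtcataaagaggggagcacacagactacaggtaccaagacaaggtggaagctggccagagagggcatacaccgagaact
Stat4 outer start: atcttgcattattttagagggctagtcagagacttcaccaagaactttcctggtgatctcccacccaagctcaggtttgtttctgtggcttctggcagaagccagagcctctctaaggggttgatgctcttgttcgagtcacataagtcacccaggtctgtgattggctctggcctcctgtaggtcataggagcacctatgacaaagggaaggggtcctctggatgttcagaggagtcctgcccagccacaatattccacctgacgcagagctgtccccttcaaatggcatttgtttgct

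Stat5a and Stat5b are neighbouring paralogs on chromosome 11 that face away from each other, and the windows of their inner starts are shown because they share a run of bases. The capitals mark that run of 16 bases, the longest that any Stat5a window shares with any Stat5b window. It begins 32 bases before the start in Stat5a (chr11:100860234-100860533, plus strand) and 23 bases before it in Stat5b (chr11:100822521-100822820, minus strand). The run was searched after the windows had been read, and on both strands it occurs in these 2 of the 32851 windows.
Stat5a inner start: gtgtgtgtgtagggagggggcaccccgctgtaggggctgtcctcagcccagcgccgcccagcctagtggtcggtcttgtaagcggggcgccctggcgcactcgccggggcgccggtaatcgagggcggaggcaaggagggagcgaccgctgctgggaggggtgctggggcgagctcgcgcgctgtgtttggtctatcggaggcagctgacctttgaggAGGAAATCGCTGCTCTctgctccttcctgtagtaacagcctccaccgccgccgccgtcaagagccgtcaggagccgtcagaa
Stat5b inner start: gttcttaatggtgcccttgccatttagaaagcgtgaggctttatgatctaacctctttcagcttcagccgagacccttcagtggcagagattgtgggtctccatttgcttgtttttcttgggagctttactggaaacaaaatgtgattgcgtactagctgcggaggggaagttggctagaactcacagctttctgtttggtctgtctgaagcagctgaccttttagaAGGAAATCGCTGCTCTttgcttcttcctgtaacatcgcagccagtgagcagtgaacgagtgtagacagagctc

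The Stat3 window (chr11:100939491-100939790, minus strand) is shown because it lies in the Stat3 region of greatest height. Like the other windows of the members it holds no GAS (TTCNNNGAA), no AP-1 site (TGANTCA) and no cyclic AMP response element (TGACGTCA). These occur in 8.3%, 7.81% and 1.79% of all windows. Among the windows with a region in all 6 libraries they occur in 6.67%, 4.76% and 3.45%. A match or its lack describes these letters and not binding.
Stat3 start: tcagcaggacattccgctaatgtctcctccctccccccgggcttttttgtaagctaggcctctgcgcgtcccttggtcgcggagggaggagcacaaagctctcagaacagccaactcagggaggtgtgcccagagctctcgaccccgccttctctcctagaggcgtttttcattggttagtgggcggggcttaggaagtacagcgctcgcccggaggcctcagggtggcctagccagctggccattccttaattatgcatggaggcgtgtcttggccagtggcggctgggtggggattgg

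The lists differed in length and depth between the groups, and this bears on every count below. The Res-shFabp7 lists held 100243 to 105796 peaks and the Res-ctrl lists 82153 to 96310. Background coverage, a relative measure of depth, was 0.868 to 1.03 in Res-shFabp7 libraries, against 0.608, 0.709 and 1.01 in Res-ctrl libraries, of which replicates 2 and 1 were the lowest. All 9 markers of CD8 T cells had regions called in all 6 libraries (3 to 37 regions a gene). So did 3 of 5 B cell, 4 of 5 myeloid and 2 of 4 NK cell markers. For erythroid and lung epithelial markers it was 2 of 3 and 2 of 5. Over all genes, 13942 of 21883 had such a region. The markers without one were Ms4a1 and Cd79a (B cell), Csf1r (myeloid), Ncr1 and Klra8 (NK cell) and Hbb-bt (erythroid). Of lung epithelial markers they were Krt8, Sftpc and Nkx2-1. In such bulk libraries, fewer cells with an open site and a less open site in each cell cannot be told apart.

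The mean number of called peaks at the STAT genes was higher with Res-shFabp7 and their mean share of the list was lower, and the groups overlapped in both. The 6 genes together had 79, 83 and 82 peaks in Res-shFabp7 libraries, against 67, 70 and 81 in Res-ctrl libraries. Res-shFabp7 libraries averaged 81.3 ± 2.08 and Res-ctrl libraries 72.7 ± 7.37 (mean ± SD of 3 libraries; exact permutation, two-sided, p = 0.2, where 3 against 3 libraries cannot go below 0.1). Res-ctrl replicate 3 lay within the Res-shFabp7 range. Per 1000 peaks of a list the STAT genes had 0.786 ± 0.0313 peaks in Res-shFabp7 libraries and 0.828 ± 0.0333 in Res-ctrl libraries (mean ± SD of 3 libraries, exact permutation p = 0.2). With the same number of peaks taken from each list, the difference between the group means turned to -3.33 peaks, and without Res-ctrl replicates 1 and 2 it was 0.333.

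Most peaks of the family were at Stat4 and Stat5b. Over the 6 libraries Stat4 had 165 of the 462 peaks, Stat5b 127, Stat3 92, Stat6 41, Stat5a 30 and Stat2 7. Within each of the 6 libraries Stat4 had more peaks than Stat5b, Stat5b more than Stat3, Stat3 more than Stat6 and Stat5a more than Stat2. Stat6 and Stat5a had equal numbers in 2 libraries.

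**Figure D1:**
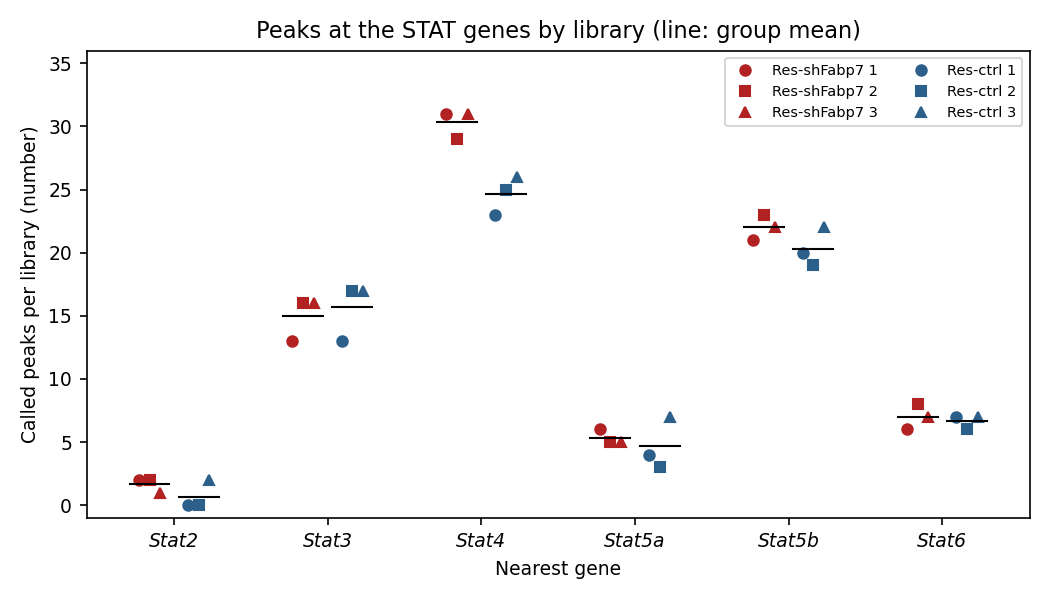
Called peaks per library (number) with each STAT gene as the nearest gene. Points are libraries, red for Res-shFabp7 and blue for Res-ctrl, and lines are group means. The Stat4 points of Res-shFabp7 (29 to 31) lie above those of Res-ctrl (23 to 26), and the groups overlap for the other 5 genes.

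Merging the peaks of the 6 lists gave 103 regions at the STAT genes, of 134174 in all. Of the 103 regions, 49 (47.6%) were called in all 6 libraries, against 42.2% of all regions. Stat4 had 20 such regions, Stat5b 14, Stat3 11, Stat6 3, Stat5a 1 and Stat2 0. Only 227 genes had more of them than Stat4, whereas 9494 had more than Stat5a. Of these, 9 lay inside the gene body of Stat3, 2 inside that of Stat6 and all inside those of Stat4, Stat5b and Stat5a. Regions inside the gene body and called in all 6 libraries numbered 1.79 per 10 kb for Stat5b, 1.7 for Stat3, 1.67 for Stat4, 1.11 for Stat6 and 0.387 for Stat5a. The paralogs Stat5a and Stat5b thus differed both in number and per length, and 7 of the 11 Stat5a regions were called in a single library, against 3 of 28 for Stat5b.

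**Figure D2:**
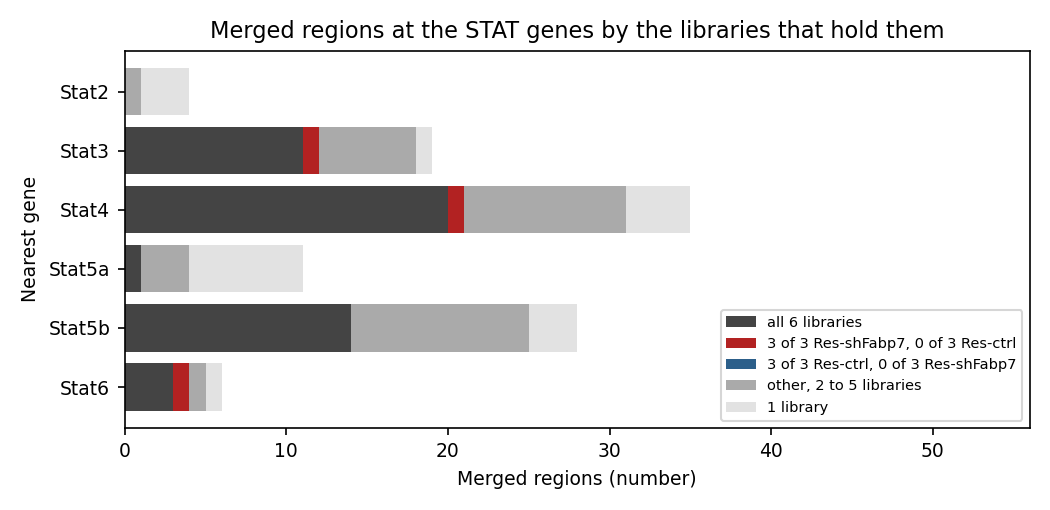
Number of merged regions at each STAT gene by the libraries in which they were called. Dark grey is all 6 libraries, red is 3 of 3 Res-shFabp7 and 0 of 3 Res-ctrl libraries, mid grey is 2 to 5 libraries in another pattern and light grey is 1 library. Stat4 has the most regions (35) and Stat2 the fewest (4), and no region fell in the class of 3 of 3 Res-ctrl and 0 of 3 Res-shFabp7 libraries.

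Regions called with one group alone were few at the STAT genes. Of the 103, 3 (2.91%) were called in 3 of 3 Res-shFabp7 and 0 of 3 Res-ctrl libraries, against 2.28% of all regions, and 0 in the opposite pattern, against 0.155%. A further 11 regions were called in 3 of 3 Res-shFabp7 and 1 or 2 Res-ctrl libraries, a pattern of 10.7% of all regions, and 2 in the reverse pattern, a pattern of 2.07%. The shares at the STAT genes were thus near those over all regions. The part of list length and background coverage in these counts was not tested.

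The 3 regions called with Res-shFabp7 alone were weak peaks, 1 each at Stat4, Stat6 and Stat3. The Stat4 region (chr1:51997082-51997291, 10.1 kb into the gene) had a pileup, the coverage at the summit, of 8, 13 and 9 in the Res-shFabp7 libraries, with a fold over local background of 4.44, 7.49 and 5.10 as the authors give it. The Stat6 region (chr10:127658199-127658387, 15.3 kb into the gene) had pileups of 21, 21 and 25 and folds of 3.05, 3.77 and 4.17. The Stat3 region (chr11:100907323-100907495, 32.2 kb into the gene) had pileups of 14, 12 and 16 and folds of 3.48, 3.12 and 4.09. Their −log10 q ran from 2.42 to 9.73 over the 9 peaks. None of the 3 met this definition any longer when the lists were trimmed to equal numbers of peaks. The count was then 1, at another region (1.15% of all regions under that setting). The count was 6 without Res-shFabp7 replicate 2 (3.85% of all regions under that setting) and 5 without Res-ctrl replicate 3 (5.18%). Without Res-ctrl replicates 1 and 2, which sets 3 libraries against 1, it was 6 (4.13% of all regions), and 8 regions were called with Res-ctrl alone (4.33%).

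Peak heights were compared at the regions called in all 6 libraries, where each library gives a value. Summit pileups were put on the log2 scale, quantile-normalised over all 56610 such regions and tested with limma, with Benjamini-Hochberg adjustment over all of them and a threshold of 0.05. Of the 49 STAT regions 2 were higher and 1 was lower with Res-shFabp7, against 3.13% and 1.4% of all regions. Both higher regions were at Stat3 and the lower one was at Stat6. The median log2 difference was -0.05 over the 49 regions and -0.01 over all regions. The normalised heights of the groups did not overlap at 5 STAT regions that were higher and 6 that were lower with Res-shFabp7, against backgrounds of 11.2% and 10.6%. Over all genes 1773 regions were higher and 792 lower, and centring on the median in place of quantile normalisation gave 1875 and 2010. Of the STAT regions, none was called higher without Res-shFabp7 replicate 1 or Res-ctrl replicate 1, and 1 was without Res-shFabp7 replicate 2, Res-shFabp7 replicate 3 or Res-ctrl replicate 2. Without Res-ctrl replicate 3, 3 were called higher and 2 lower. All 3 STAT calls were lost when the authors' fold replaced the pileup, where the same limma test called no region of any gene in either direction, with 4399 higher and 3489 lower at an unadjusted p under 0.05.

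**Figure D3:**
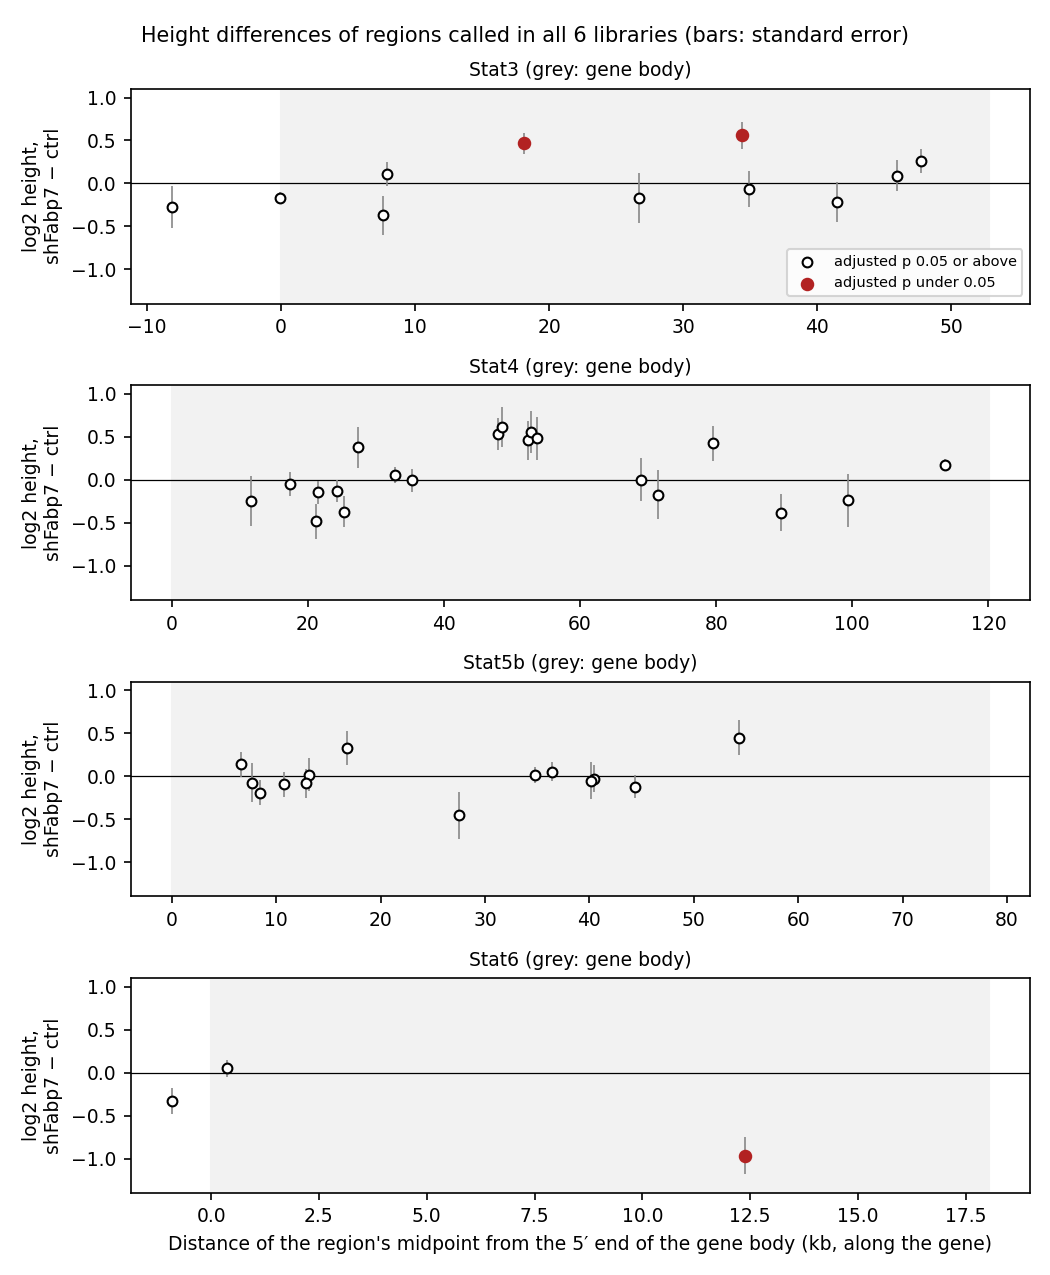
Log2 difference in normalised summit height, Res-shFabp7 minus Res-ctrl, of regions called in all 6 libraries (points, with standard error bars) against the distance of the region's midpoint from the 5′ end of the gene body in kb. Filled points have an adjusted p under 0.05: 2 regions of Stat3, at 0.47 and 0.56, and 1 of Stat6, at -0.97. The 5 Stat4 points near the middle of the gene lie at 0.46 to 0.61 and are open.

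Stat2 encodes the partner that brings interferon signalling to the ISRE, and by the rule it had little open chromatin of its own. It had 2, 2 and 1 peaks in Res-shFabp7 libraries, against 0, 0 and 2 in Res-ctrl libraries, so the groups overlap (exact permutation p = 0.4). The most frequent of its 4 regions (chr10:128284155-128284346, 13.8 kb into the gene) had pileups of 9, 9 and 12 with Res-shFabp7 and 10 in Res-ctrl replicate 3 alone. Its start is open, but the region there is assigned to another gene.

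The Stat2 start lies inside the gene body of Apof, an apolipoprotein gene. The midpoint of the region over the start (chr10:128270183-128270958) lies in both gene bodies. Of genes at the same distance the shorter was taken, here Apof, so the region is in none of the STAT counts. That region was singled out after its values were seen. Its pileup was 407, 402 and 399 in Res-shFabp7 libraries, against 272, 230 and 392 in Res-ctrl libraries. Normalised log2 heights were 8.56, 8.63 and 8.49 with Res-shFabp7 and 8.26, 8.22 and 8.36 with Res-ctrl, and the groups do not overlap. The difference was 0.28 (SE 0.067, limma adjusted p = 0.0083). With median centring the difference was 0.14 (limma adjusted p = 0.276), and with the authors' fold 0.093 (limma adjusted p = 0.408). Without Res-shFabp7 replicate 1 it was 0.28 (limma adjusted p = 0.0606), and without Res-shFabp7 replicate 2 it was 0.25 (limma adjusted p = 0.0739). With Res-ctrl replicate 3 as the single Res-ctrl library it was 0.20.

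Stat3 encodes the factor downstream of IL-6 family cytokines, IL-10 and IL-21, and it held both higher calls of the family. Its peak numbers were 13, 16 and 16 with Res-shFabp7 and 13, 17 and 17 with Res-ctrl (exact permutation p = 0.6). The first called region (chr11:100921301-100921649) lies 18.1 kb into the gene. Its pileup was 170, 138 and 141 in Res-shFabp7 libraries, against 69, 77 and 144 in Res-ctrl libraries, so that by pileup Res-ctrl replicate 3 falls among the Res-shFabp7 libraries. After normalisation the heights were 7.27, 7.04 and 7.01 with Res-shFabp7 and 6.36, 6.66 and 6.91 with Res-ctrl, which do not overlap. The difference was 0.47 (SE 0.122, limma adjusted p = 0.0148). It missed the threshold with median centring (adjusted p = 0.0508), without Res-shFabp7 replicate 1 and without Res-ctrl replicate 1 (highest adjusted p 0.165).

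The second called Stat3 region (chr11:100904965-100905398) lies 34.4 kb into the gene. Its pileup was 93, 87 and 82 in Res-shFabp7 libraries, against 40, 34 and 85 in Res-ctrl libraries, and again Res-ctrl replicate 3 stands with the Res-shFabp7 libraries by pileup. Normalised heights were 6.36, 6.37 and 6.22 with Res-shFabp7 and 5.61, 5.51 and 6.15 with Res-ctrl, a difference of 0.56 (SE 0.159, limma adjusted p = 0.0277). Of the 6 fits that leave out 1 library, only the one without Res-ctrl replicate 3 kept the call, at a difference of 0.75, and the highest adjusted p was 0.141. Without Res-ctrl replicates 1 and 2, which leaves a single Res-ctrl library, the differences of the 2 called Stat3 regions were 0.19 and 0.16.

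The region over the start of Stat3 had an estimate below 0, unlike the called regions inside the gene. This region (chr11:100939110-100940236) had pileups of 324, 301 and 336 in Res-shFabp7 libraries, against 291, 258 and 418 in Res-ctrl libraries. It was the highest Stat3 region, with a mean height percentile of 98.1 among regions called in all 6 libraries. Normalised heights were 8.22, 8.20 and 8.25 with Res-shFabp7 and 8.35, 8.38 and 8.46 with Res-ctrl, without overlap, and the difference was -0.17 (SE 0.069, limma adjusted p = 0.137). Median centring made it -0.31, past the threshold (adjusted p = 0.0105). The difference between start and inner regions was not tested. The remaining region among the 3 highest of Stat3, chr11:100891694-100892032 at 47.7 kb, had pileups of 109, 98 and 96 with Res-shFabp7 and 53, 60 and 110 with Res-ctrl. The groups overlap, and its difference was 0.26 (SE 0.139, limma adjusted p = 0.297).

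Stat4 encodes the factor through which IL-12 drives interferon gamma, and it was the member with the most open regions and the only one whose peak numbers did not overlap between the groups in the full lists. It had 31, 29 and 31 peaks in Res-shFabp7 libraries, against 23, 25 and 26 in Res-ctrl libraries. Res-shFabp7 libraries averaged 30.3 ± 1.15 and Res-ctrl libraries 24.7 ± 1.53 (mean ± SD of 3 libraries), and the exact permutation p of 0.1 is the smallest that these libraries allow. Among all genes with a peak 11.1% were higher without overlap, and among the 704 genes with a mean of at least 20 peaks it was 31.4%. No member was lower without overlap, which 0.55% of genes with a peak were. Per 1000 peaks the Stat4 share was 0.293 ± 0.0178 in Res-shFabp7 libraries and 0.282 ± 0.0195 in Res-ctrl libraries (mean ± SD of 3 libraries, exact permutation p = 0.5). At equal numbers of peaks the Stat4 means were 25.3 with Res-shFabp7 and 23.7 with Res-ctrl and the groups overlapped (exact permutation p = 0.3). Stat5b was then lower without overlap, at 17.3 with Res-shFabp7 and 19.7 with Res-ctrl (exact permutation p = 0.1). The shares of genes without overlap given above are for the full lists. At equal numbers of peaks that share was not computed, so how common such a separation is cannot be said.

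No Stat4 region passed the height test. Of its 20 regions called in all 6 libraries, 10 had an estimate above 0 and 10 below. The highest, chr1:52100422-52101079, lies 114 kb into the gene. Its pileup was 309, 302 and 335 in Res-shFabp7 libraries, against 222, 209 and 311 in Res-ctrl libraries. Normalised heights did not overlap, and the difference was 0.17 (SE 0.074, limma adjusted p = 0.174). The next, chr1:52019577-52020234 at 32.8 kb, had pileups of 252, 191 and 258 with Res-shFabp7 and 175, 152 and 270 with Res-ctrl and a difference of 0.05 (limma adjusted p = 0.792). The third, chr1:52008485-52008729, had pileups of 85, 96 and 107 with Res-shFabp7 and 83, 71 and 119 with Res-ctrl and a difference of -0.15 (limma adjusted p = 0.583).

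Similar estimates lay together along Stat4, a grouping noticed after the values were seen and given without a test. All 5 regions called in all 6 libraries between 47.9 and 53.7 kb into the gene had estimates of 0.46 to 0.61, with limma adjusted p of 0.0847 to 0.277. The first of them, chr1:52034703-52035311, had pileups of 69, 71 and 55 with Res-shFabp7 and 23, 33 and 61 with Res-ctrl. The second, chr1:52035463-52035700, had 41, 41 and 56 with Res-shFabp7 and 29, 12 and 35 with Res-ctrl. In both, Res-ctrl replicates 1 and 2, the libraries of lowest background coverage, had the lowest pileups, and the part of coverage in the estimates was not tested. Normalised heights of the groups overlapped in 4 of the 5 regions.

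The inner start of Stat4 was open and the outer one was not called in any library. The region over the inner start, with the ISRE core printed above, is chr1:52008143-52008376. Its pileup was 39, 36 and 33 in Res-shFabp7 libraries, against 43, 38 and 39 in Res-ctrl libraries. Normalised heights were 5.03, 5.08 and 4.85 with Res-shFabp7 and 5.71, 5.66 and 5.05 with Res-ctrl, and Res-ctrl replicate 3 overlaps the Res-shFabp7 range. The difference was -0.48 (SE 0.206, limma adjusted p = 0.170).

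Stat5a and Stat5b encode near-identical factors of IL-2, IL-7 and IL-15 signalling, and neither had a region that passed the height test. Stat5b had 21, 23 and 22 peaks in Res-shFabp7 libraries, against 20, 19 and 22 in Res-ctrl libraries (exact permutation p = 0.3). Per 1000 peaks its share was 0.213 ± 0.0102 in Res-shFabp7 libraries and 0.232 ± 0.00368 in Res-ctrl libraries (mean ± SD of 3 libraries), with the smallest exact permutation p, 0.1. This share was lower without overlap, as it was for 17.1% of all genes with a peak, and no member had a higher share without overlap, as 7.29% of those genes did. Stat5a had 6, 5 and 5 peaks in Res-shFabp7 libraries, against 4, 3 and 7 in Res-ctrl libraries, which overlap.

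The highest Stat5b regions lay near its inner start rather than its outer one. The highest, chr11:100823997-100824404, had pileups of 227, 189 and 214 with Res-shFabp7 and 152, 165 and 230 with Res-ctrl, and a difference of 0.02 (SE 0.091, limma adjusted p = 0.945). The region at the inner start itself, chr11:100822458-100822716, which holds most of the window printed above, had 164, 149 and 119 with Res-shFabp7 and 113, 103 and 142 with Res-ctrl, and a difference of 0.05 (SE 0.114, limma adjusted p = 0.844). The region over the outer start, chr11:100850273-100850839, whose window has a GC content of 82.7%, had 72, 78 and 83 with Res-shFabp7 and 68, 60 and 98 with Res-ctrl. Its difference was -0.19 (SE 0.143, limma adjusted p = 0.494). Next to the 5′ end of the gene body, where no window was given, chr11:100859054-100859126 was called in 1 library of each group. Its pileup was 40 in Res-shFabp7 replicate 3 and 39 in Res-ctrl replicate 3. The third region by height, chr11:100814435-100814863, had a difference of -0.12 (limma adjusted p = 0.663). Over the 14 Stat5b regions tested, 6 estimates were above 0 and 8 below.

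Stat5a had its highest region at its inner start. This region, chr11:100860172-100860679, was the only one of the gene called in all 6 libraries. Its pileup was 285, 347 and 292 in Res-shFabp7 libraries, against 259, 224 and 370 in Res-ctrl libraries, and the groups overlap. The difference was -0.05 (SE 0.078, limma adjusted p = 0.761). The region at the outer start, chr11:100859627-100860016, was much lower, at 39, 28 and 34 with Res-shFabp7 and 26 and 28 in Res-ctrl replicates 1 and 2, and was not called in Res-ctrl replicate 3.

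Stat6 encodes the IL-4 factor and held the lower call of the family, the one that held in each fit that left out 1 library. The region, chr10:127655051-127655619, lies 12.4 kb into the gene. Its pileup was 27, 28 and 24 in Res-shFabp7 libraries, against 33, 31 and 62 in Res-ctrl libraries, and the groups do not overlap. The authors' fold was 8.22, 10.1 and 7.73 with Res-shFabp7 and 11.7, 12.2 and 16.8 with Res-ctrl, also without overlap. Normalised heights were 4.47, 4.69 and 4.37 with Res-shFabp7 and 5.35, 5.39 and 5.71 with Res-ctrl, a difference of -0.97 (SE 0.216, limma adjusted p = 0.00398), or 0.511-fold. Leaving out each library in turn gave limma adjusted p of 0.00984 to 0.0316. Without Res-ctrl replicates 1 and 2, which leaves a single Res-ctrl library, the difference was -1.16. With the authors' fold it was -0.78 (limma adjusted p = 0.110).

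The other Stat6 regions did not pass the test. The region over the start, chr10:127642526-127644143, had pileups of 183, 152 and 190 with Res-shFabp7 and 133, 121 and 191 with Res-ctrl, a difference of 0.05 (SE 0.099, limma adjusted p = 0.837). The region just before it, chr10:127641846-127642240, had 86, 61 and 67 with Res-shFabp7 and 59, 71 and 95 with Res-ctrl, a difference of -0.33 (SE 0.150, limma adjusted p = 0.209). Stat6 had 6, 8 and 7 peaks in Res-shFabp7 libraries, against 7, 6 and 7 in Res-ctrl libraries, which overlap.

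**Figure D4:**
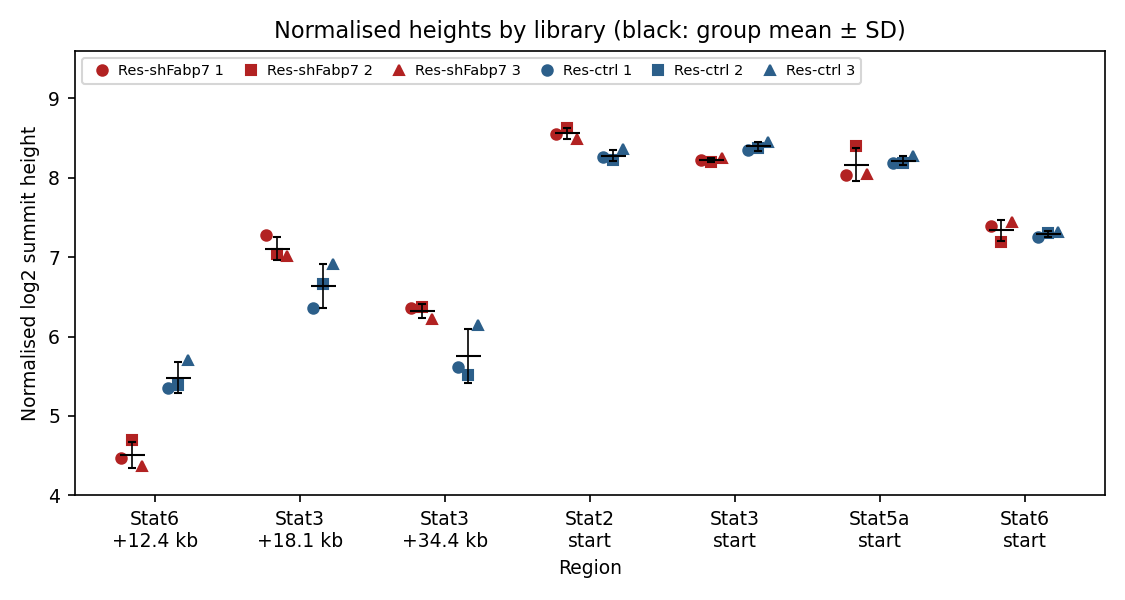
Normalised log2 summit heights by library of the 3 called STAT regions (distance into the gene in kb) and of regions over the starts of Stat2, Stat3, Stat5a and Stat6, with red points for Res-shFabp7, blue for Res-ctrl and black bars for the group mean ± SD. The Res-shFabp7 points of the Stat6 region at 12.4 kb (4.37 to 4.69) lie below those of Res-ctrl (5.35 to 5.71). Those of Stat5a and Stat6 starts overlap, and the Stat2 start region is assigned to Apof.

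The genes that feed and restrain the STAT proteins were listed by role: 22 cytokine receptors, 4 JAK kinases and 16 inhibitors. Of the 42 genes 40, all but the receptor genes Lifr and Osmr, had a region called in all 6 libraries, against 13942 of all 21883 genes. Of the 353 regions of the listed genes tested for height, 14 (3.97%) were higher and 6 (1.7%) lower with Res-shFabp7. Over all regions it was 3.13% and 1.4%. The median log2 difference of the 353 was 0.05, against -0.01 over all regions. Of 719 regions 9 (1.25%) were called with Res-shFabp7 alone, against 2.28% of all regions. With Res-ctrl alone it was 2, at Il2rb and Jak1, against 0.155% of all regions. The height calls lay at 14 genes.

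Of 207 receptor regions tested, 9 (4.35%) were higher and 3 (1.45%) lower, against 3.13% and 1.4% of all regions. Il12rb2, the signalling chain of the IL-12 receptor upstream of STAT4, had the call of lowest adjusted p (chr6:67396215-67396513), with normalised heights of 6.14, 5.96 and 5.83 with Res-shFabp7 and 4.80, 4.79 and 5.48 with Res-ctrl. The groups do not overlap, and the difference was 0.95 (SE 0.192, limma adjusted p = 0.00133). Il2ra, the alpha chain of the high-affinity IL-2 receptor, which lies upstream of STAT5, had 4 of its 20 tested regions higher, by 0.42 to 0.79. At the region with the difference of 0.79 the groups overlapped (limma adjusted p = 0.0395). There Res-ctrl replicate 3 had a normalised height of 5.15 and Res-shFabp7 replicate 2 had 4.93. At the other called Il2ra regions the groups did not overlap. Il2rb, the shared chain of the IL-2 and IL-15 receptors, had 1 of 9 lower, at -1.09 (SE 0.252, limma adjusted p = 0.00563). Ifngr1, a chain of the interferon gamma receptor, had 2 of 18 lower, at -0.58 and -0.81. Il23r, Il21r, Il10rb and Ifnar1 had 1 higher region each, at 0.80, 0.68, 0.35 and 0.31.

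Among the kinases, which phosphorylate the STAT proteins, 3 of 49 regions (6.12%) were higher and 0 lower, against 3.13% and 1.4% of all regions. Jak2, which serves the IL-12 and interferon gamma receptors, had 2 of 13 higher, at 0.48 and 0.56. Of its 33 regions 3 were called with Res-shFabp7 alone, the only ones among the 112 kinase regions (2.68%, against 2.28% of all regions). Tyk2, the partner of JAK2 at the IL-12 receptor, had 1 of 2 higher, with normalised heights of 6.94, 6.60 and 6.82 with Res-shFabp7 and 6.19, 6.23 and 6.12 with Res-ctrl. That difference was 0.61 (SE 0.133, limma adjusted p = 0.00320).

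Among the inhibitors, 2 of 97 regions (2.06%) were higher and 3 (3.09%) lower, against 3.13% and 1.4% of all regions. Socs3, a feedback inhibitor of STAT3 signalling, had 1 of 9 lower at -0.63, and Pias3, which restrains STAT3, had its single tested region lower at -0.60. The phosphatase gene Ptpn11 had 1 of 5 higher at 0.66. The phosphatase gene Ptpn1 had 1 of 19 higher at 0.41 and 1 lower at -0.76. With the authors' fold no region of any gene was called.

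The genes whose peak numbers were most like those of a member over the 6 libraries were found by the sum of absolute differences in peak number. For Stat4 the nearest was Larp1 with 29, 29 and 30 peaks in Res-shFabp7 libraries, against 23, 25 and 24 in Res-ctrl libraries, a sum of 5, followed by Ccnd2 and Smad7 at 8 each. For Stat5b it was Slc16a10 at 2, then Phf2 at 4 and Arhgap5 at 5. For Stat3 it was Ptp4a3 at 4, then Mark2 and Sv2c at 5 each. For Stat6 it was Mgat4e at 0, then Ifrd1 at 1. For Stat5a it was Arf3 and Tacc3 at 1 each, then 4930522L14Rik at 2, and for Stat2 it was Gm47978 and Zfp442 at 0 each, then 1700014D04Rik at 1.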

How the data were processed

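Per the labels, 6 ATAC-seq libraries (3 biological replicates a group) were read as pairs of 76 bases at 35 to 75 M pairs each, and the depth of a single library is not given. The submitters' processing notes name build mm10 and the tools MACS2 2.2.7.1, Bowtie 1.1.2, cutadapt 2.8 and Trim Galore 0.6.5. The sources used here say nothing of read shifting for the transposase, of duplicates or of the caller's mode. Each library has its own list, deposited by the authors and called at a q of 0.05. Per the file headers each list gives p and q values as −log10, the pileup (coverage signal at the summit) and the fold (ratio of summit to local background).

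The values show starts and summits counted from 0, and 1 was added to both here. Background coverage is the most frequent background recovered from pileup and fold. Peaks overlapping by at least 1 bp were merged, and a region went to the gene nearest its midpoint within 100 kb (RefSeq, GRCm38.p6). Of genes at the same distance the shorter was taken, for peaks and for regions. Promoter sequences come from the same source, and all 6 members matched. Heights were tested with limma 3.58.1 in R 4.3.3, with a trend, on all 56610 regions called in every library. The same fit was also run on simulated data with noise drawn independently for each library. That run is no check on how the calls depend on normalisation or on single libraries. Tables were made with Python 3.11.15 and pandas 2.3.3. Library values were compared by exact permutation, two-sided.

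Members and lists were chosen with earlier results of these data known. Named are the 6 members, for each the 3 highest regions called in all 6 libraries, every region called with one group alone or past the threshold, and up to 3 genes most like a member, of which 1 is not reported here. Regions named outside this rule were chosen after their values were seen. Alternatives were stricter q, equal numbers of peaks, other merging and distances, other height scales, a replicate block and leaving out libraries. Leaving out Res-ctrl replicates 1 and 2 together was added after seeing the data.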

Additional observations from a re-analysis of the deposited data

How the results depend on the processing

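Of 179 alternative height estimates of named regions, 141 kept their direction and their side of the threshold, 19 lost a call, 1 gained one and 18 turned. Only regions called in the main fit could lose a call. These were the 2 called Stat3 regions and the region over the start of Stat2, with 12 alternatives each, and the called Stat6 region with 11. The 141 include estimates of regions that were not called in the main fit and stayed so. Peak numbers and shares could not pass the threshold of 0.05 under any setting, since 3 against 3 libraries allow no p below 0.1. The difference in peak number at the STAT genes was -3.33 at equal numbers of peaks and 0.333 without Res-ctrl replicates 1 and 2. In the next counts, percentages are the shares of all regions with the pattern under the same setting. Regions called with Res-shFabp7 alone numbered 1 at equal numbers of peaks (1.15%) and 7 when 2 of 3 libraries sufficed (7.28%). They numbered 6 without Res-ctrl replicates 1 and 2 (4.13%), and 3 to 6 without 1 library (2.90% to 5.18%). The 6 without 1 library was without Res-shFabp7 replicate 2 (3.85%). Regions called with Res-ctrl alone numbered 1 when 2 of 3 libraries sufficed, 8 without Res-ctrl replicates 1 and 2, and 0 to 1 without 1 library. The numbers of higher and of lower STAT regions were 1 and 2 with median centring, 0 and 0 with the authors' fold and 0 and 0 without Res-ctrl replicates 1 and 2. Among the regions of above-median height the lower count was 0, since the called Stat6 region was not among them. Without 1 library they were 0 to 3 and 1 to 2, the 0 being without Res-shFabp7 replicate 1 or Res-ctrl replicate 1. Over all genes, higher and lower regions numbered 1875 and 2010 with median centring, 0 and 0 with the authors' fold and 0 and 0 without Res-ctrl replicates 1 and 2, where limma had 3165 and 2191 at an unadjusted p under 0.05. That last setting leaves a single Res-ctrl library, assumed to vary like the Res-shFabp7 libraries, so its lost calls say little. Without 1 library they ranged from 456 to 2222 and from 248 to 946, lowest without Res-shFabp7 replicate 1 and highest without Res-ctrl replicate 3. The cause of these changes was not tested, and some of these settings also hold fewer regions or libraries.

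Directions that turned were all of differences not past a threshold. The Stat5b peak difference was -2.33 at equal numbers of peaks. With 1 library left out, the peak difference ranged from -2.0 to 0.333 at Stat3, from -0.167 to 1.83 at Stat5a and from -0.167 to 0.833 at Stat6. Height estimates with median centring, then with the authors' fold, were -0.0679 and -0.0283 for the Stat4 region at 52019577, -0.0706 and -0.0740 for the Stat6 start, -0.0596 and -0.125 for the Stat5b inner start and -0.108 and -0.0920 for the Stat5b region at 100823997. Without Res-ctrl replicates 1 and 2 the Stat4 estimate was -0.0724. With 1 library left out these 4 ranged from -0.00739 to 0.167, -0.00311 to 0.123, -0.0313 to 0.194 and -0.0578 to 0.0902, the Stat5b region at 100814435 from -0.240 to 0.0171 and the Stat5a inner start from -0.175 to 0.0120.

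The replicate numbers did not pair the libraries: deviations of same-numbered libraries correlated at -0.032, 0.028 and -0.018. With a replicate block, 1919 regions were higher and 874 lower over all genes, the STAT calls did not change, and the difference in STAT peak number of 8.67 had an exact sign-flip permutation p of 0.25, the smallest that 3 pairs allow. List length and coverage limit what an absent peak shows, and 3 libraries a group limit the precision of every value.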
